A study of Penicillium oxalicum with 9 samples.

Results

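The starch-degrading enzymes and the starch-binding protein of Penicillium oxalicum described here are 5 of the 9786 genes in the deposited table, followed across 3 deletion strains. They were chosen by locus number and are the glucoamylase Amy15A (PDE_09417), the alpha-amylase Amy13A (PDE_01201), the putative alpha-glucosidases PDE_04151 and PDE_00400, and PDE_01354, whose description names a starch-binding and a chitin-binding domain. The descriptions in the table match these names, and all 5 had enough reads to be tested.

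RNA sequencing covered 9 cultures of this filamentous fungus, 3 biological replicates for each of 3 strains, labelled as deletions of PoflbC, PoClrC and CA and called dPoflbC, dPoClrC and dCA. Every culture was shaken at 200 rpm and 30 °C in Vogel's medium, first with 2% glucose for 22 h, next without carbon for 2 h and last with 2% cellulose for 4 h. The mycelia therefore met cellulose, and no starch was supplied in the steps the labels describe. No unmutated strain was among the samples, and the labels explain neither the parent strain nor CA. A comparison thus sets deletion strains against each other, with no reference level to show which strain departed from it.

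Starch is a polymer of alpha-linked glucose. Alpha-amylases cut it within the chain, glucoamylases release glucose from the chain ends, and alpha-glucosidases split maltose and other short fragments. Starch-binding domains hold such enzymes on the granule. In Aspergillus the genes for these secreted enzymes are switched on by the zinc finger protein AmyR, a name that no description or orthologue entry in this table holds.

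The libraries held 6.49 to 7.76 M reads in genes (M, 1e+06). The library of dCA replicate 2 stood apart, with 15.7% of its reads in its 10 highest genes against 5.53% to 11.2% in the other libraries, and with a scaling factor of 0.68 against 0.869 to 1.24. Levels below are RPKM, reads per M reads in genes and per kilobase of coding length, as mean ± SD with n = 3. Fold changes and their standard errors (SE) come from edgeR's quasi-likelihood test after scaling of the libraries, so they differ from ratios of RPKM. A gene is said to have fallen or risen where its adjusted p was under 0.05 over the 8681 genes tested and its log2 fold change reached 1 in either direction. These are levels in bulk mycelium, where fewer cells of a kind and less RNA per cell cannot be told apart.

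The starch genes were lowest in dPoflbC, intermediate in dPoClrC and highest in dCA. Together they took 0.0351% ± 0.00159 of the reads of a dPoflbC library, 0.525% ± 0.0254 in dPoClrC and 1.39% ± 0.185 in dCA. In dPoflbC all 5 genes fell against dCA and against dPoClrC. In dPoClrC against dCA, Amy15A, Amy13A and PDE_01354 fell, while the alpha-glucosidases differed by less than the threshold of size.

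**Figure D1:**
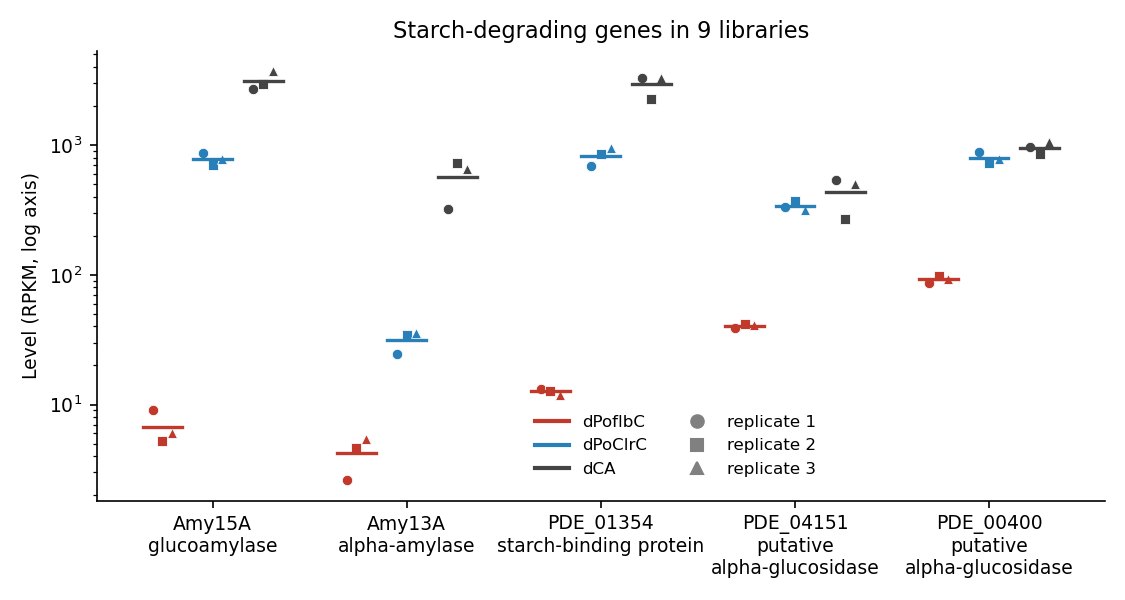
Level of each starch gene in each library (RPKM, log axis), with the strain in colour, the replicate by marker and the strain mean as a bar. Amy15A, Amy13A and PDE_01354 form 3 separate steps from dPoflbC to dCA, while the levels of PDE_04151 and PDE_00400 in dPoClrC overlap those in dCA.

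Amy15A, the glucoamylase, showed the widest range. It stood at 9.00, 5.20 and 6.02 RPKM in dPoflbC replicates 1, 2 and 3, from 126, 77 and 81 reads. In dPoClrC it stood at 865, 697 and 778 RPKM, and in dCA at 2705, 2936 and 3707 RPKM. No strain overlapped another. By level it ranked 31st to 47th of the 9786 genes in the dCA libraries, 170th to 217th in dPoClrC and 7265th to 7855th in dPoflbC. Its strain means were 6.74 ± 2.00, 779.9 ± 84.1 and 3116 ± 525 RPKM. Scaled, it was 699.5-fold lower in dPoflbC than in dCA (log2 fold change -9.45, SE 0.33, adjusted p = 3.81e-08) and 140.1-fold lower than in dPoClrC (-7.13, SE 0.30, adjusted p = 1.27e-07). Its change in dPoflbC against dCA was the 5th lowest of the 8681 genes tested. In dPoClrC it was 4.99-fold lower than in dCA (-2.32, SE 0.24, adjusted p = 0.000111).

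Amy13A, the alpha-amylase, was the member that dropped furthest in dPoClrC against dCA. Its levels in dPoflbC were 2.61, 4.59 and 5.42 RPKM, from 36, 67 and 72 reads that covered 50.5%, 76.7% and 76.5% of its length in the authors' deposited values. In dPoClrC it was at 24.6, 34.1 and 35.3 RPKM. In dCA it was at 319.5, 721.5 and 651 RPKM, so that dCA replicate 1 lay well below the other 2 but still above every library of the other strains. The means were 4.21 ± 1.45, 31.4 ± 5.87 and 564 ± 215 RPKM. Amy13A was 23.1-fold lower in dPoClrC than in dCA (log2 fold change -4.53, SE 0.42, adjusted p = 6.51e-05), and without dCA replicate 2 that change was -4.13. In dPoflbC it was 208-fold lower than in dCA (-7.70, SE 0.50, adjusted p = 9.41e-07) and 9.01-fold lower than in dPoClrC (-3.17, SE 0.42, adjusted p = 0.000127). The last value was -1.98 with limma on log2(RPKM + 5), a scale that understates changes of low genes.

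PDE_01354 carries domains that bind starch and chitin, and its entry in the table names no catalytic activity. Its RPKM was 13.3, 12.7 and 11.9 in the dPoflbC libraries, 694, 850.3 and 942 in those of dPoClrC, and 3266, 2272 and 3291 in those of dCA. The strains did not overlap, and its levels lay close to those of Amy15A in dPoClrC and in dCA. The strain means were 12.6 ± 0.675, 829 ± 125 and 2943 ± 581 RPKM. It was 346-fold lower in dPoflbC than in dCA (log2 fold change -8.43, SE 0.23, adjusted p = 1.23e-08), 79.6-fold lower than in dPoClrC (-6.32, SE 0.21, adjusted p = 5.93e-08), and 4.34-fold lower in dPoClrC than in dCA (-2.12, SE 0.17, adjusted p = 2.81e-05).

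The putative alpha-glucosidases had smaller fold changes than the other 3 genes against dCA and higher levels than them in dPoflbC. The orthologue entry of PDE_00400 is alpha-glucosidase, and that of PDE_04151 is glucan 1,6-alpha-glucosidase. The RPKM of PDE_04151 was 38.8, 41.5 and 41.0 in the dPoflbC libraries, 334, 368 and 317 in those of dPoClrC, and 541, 269 and 498 in those of dCA. The low dCA value is that of replicate 2, the library that stood apart, and it lies below every dPoClrC library. The RPKM of PDE_00400 was 86.4, 98.2 and 92.8 in the dPoflbC libraries, 889, 722 and 781 in those of dPoClrC, and 959, 847 and 1054 in those of dCA. Here dPoClrC replicate 1 exceeded dCA replicate 2. After scaling, neither gene's dPoClrC libraries overlapped those of dCA. In dPoflbC against dCA, PDE_04151 was 15.8-fold lower (log2 fold change -3.98, SE 0.19, adjusted p = 1.42e-07) and PDE_00400 was 15.5-fold lower (-3.95, SE 0.17, adjusted p = 7.41e-08). Against dPoClrC the folds were 10.2 (-3.35, SE 0.18, adjusted p = 4.58e-07) and 10.4 (-3.38, SE 0.17, adjusted p = 2.43e-07).

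Between dPoClrC and dCA these 2 alpha-glucosidases did not pass the threshold of size. Their log2 fold changes were -0.63 for PDE_04151 (95% interval -1.003 to -0.26, adjusted p = 0.0148) and -0.57 for PDE_00400 (95% interval -0.91 to -0.23, adjusted p = 0.0155). With no scaling beyond library size the values were nearer 0, at -0.36 and -0.26. Without dCA replicate 2 the value of PDE_04151 was -0.79.

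The counts stand against a background in which many genes differed between these strains. In dPoflbC against dCA 5 of 5 genes fell, where 27.1% of all genes tested were called, 15.8% lower and 11.4% higher. In dPoflbC against dPoClrC 5 of 5 fell, where 22.6% were called, 13.6% lower and 9.05% higher. In dPoClrC against dCA 3 of 5 fell, where 13.0% were called, 7.35% lower and 5.69% higher. After scaling, the strains did not overlap in any of the 5 genes in any comparison, which held for 68.2%, 69.6% and 50.6% of all genes in that order. The median log2 fold changes of the 5 were -7.70, -3.38 and -2.12, beside -0.07, 0.01 and 0.00 for all genes tested. The comparisons share libraries, so their counts are not independent, and the genes were chosen with earlier results of these data known. The number called, 5, 5 and 3, was the same under all 19 other settings tried.

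The starch genes also changed in proportion to each other. PDE_00400 and PDE_04151 made up 84.9% ± 1.38 of the summed RPKM of the 5 genes in dPoflbC, 41.0% ± 2.55 in dPoClrC and 17.3% ± 1.75 in dCA. Amy15A and PDE_01354 made up 38.9% ± 3.68 and 36.6% ± 4.90 in dCA, against 4.34% ± 1.46 and 8.08% ± 0.669 in dPoflbC. Amy13A was at 1.13% ± 0.221 in dPoClrC, below its share of 2.67% ± 0.868 in dPoflbC and of 7.14% ± 3.07 in dCA.

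**Figure D2:**
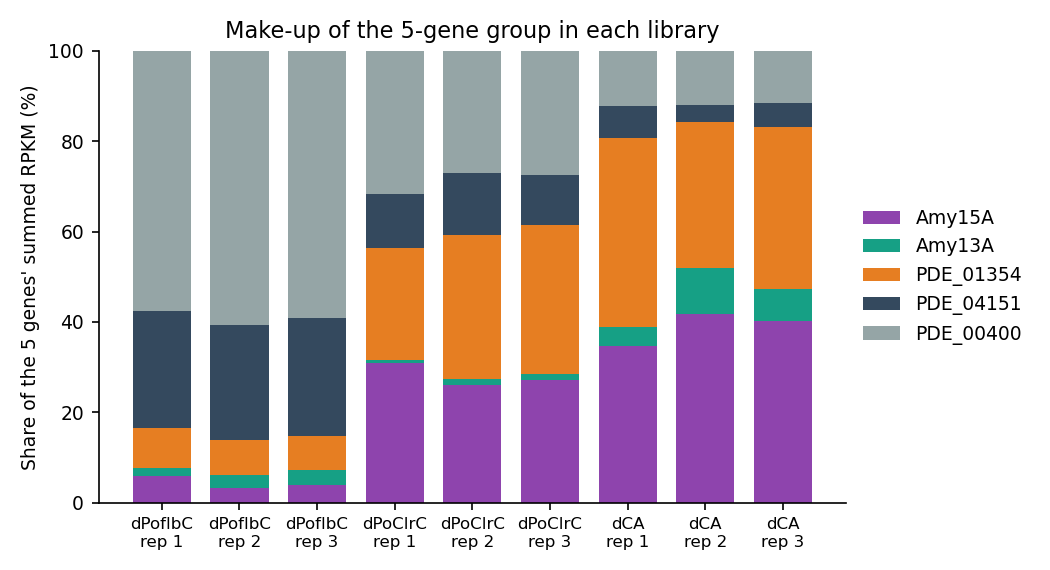
Share of each starch gene in the summed RPKM of the 5 genes (percent, stacked bars, each library a bar). Both alpha-glucosidases fill 83.4% to 86.2% of the bar in dPoflbC libraries and 15.8% to 19.3% in dCA libraries.

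Ratios between genes within a library do not depend on how libraries are scaled, and they were tested for a difference among the 3 strains. The test was an exact permutation test of the F statistic over all assignments of the 9 libraries to the strains, whose smallest possible p is 0.00357, adjusted over the 10 pairs. In 9 pairs the ratio differed among strains. The 10 pairs are formed from the same 5 genes, so they are not independent. How many pairs of other genes would differ was not worked out, so the count is not particular to the starch genes. The log2 ratio of Amy15A to PDE_00400, per length, was -3.81 ± 0.499 in dPoflbC, -0.03 ± 0.0239 in dPoClrC and 1.70 ± 0.178 in dCA (n = 3 each, exact permutation adjusted p = 0.00714). Amy15A thus lay far below this alpha-glucosidase in dPoflbC, level with it in dPoClrC and above it in dCA. The ratio of PDE_04151 to PDE_01354 ran the other way, at 1.68 ± 0.119, -1.28 ± 0.265 and -2.80 ± 0.251 (n = 3 each, exact permutation adjusted p = 0.00714).

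Amy13A did not keep step with Amy15A. The log2 ratio of Amy15A to Amy13A was 4.65 ± 0.424 in dPoClrC, 2.54 ± 0.529 in dCA and 0.70 ± 0.929 in dPoflbC (n = 3 each, exact permutation adjusted p = 0.00714). In dPoflbC the ratio was 1.77 in replicate 1 and 0.18 and 0.15 in the other 2, at the low read counts given above. The ratios of Amy13A to PDE_04151 and to PDE_00400 were alike in dPoflbC (-3.32 ± 0.501 and -4.51 ± 0.480) and dPoClrC (-3.45 ± 0.298 and -4.68 ± 0.428), and higher in dCA (0.35 ± 1.09 and -0.84 ± 0.688). For these pairs the exact permutation adjusted p over the 3 strains was 0.0317 and 0.0306. An exact permutation test of 2 strains alone, 3 libraries against 3, cannot go below p = 0.1 and was not made.

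The alpha-glucosidases kept their proportion to each other. The log2 ratio of PDE_04151 to PDE_00400 was -1.19 ± 0.0467 in dPoflbC, -1.23 ± 0.230 in dPoClrC and -1.19 ± 0.425 in dCA. The strain means differed by at most 0.04, less than the SD within any strain (exact permutation adjusted p = 0.982, n = 3 each), which does not show that the ratio is the same. Amy15A and PDE_01354 were also close, with log2 ratios of -0.94 ± 0.361, -0.08 ± 0.346 and 0.09 ± 0.328 in dPoflbC, dPoClrC and dCA. This pair had exact permutation adjusted p = 0.0317, which rose to 0.0516 to 0.0833 when dPoflbC replicate 2 or 3, dPoClrC replicate 2 or 3 or dCA replicate 2 was left out.

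**Figure D3:**
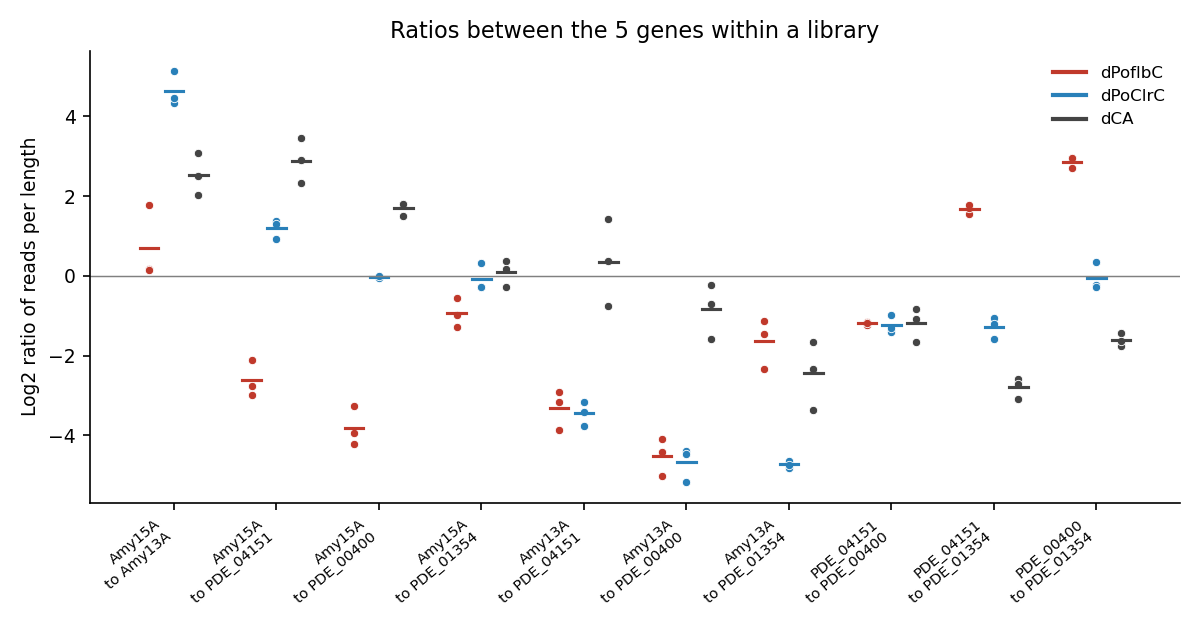
Log2 ratio of reads per length for each pair of starch genes, with a point for each library, the strain in colour and the strain mean as a bar. The strain means of PDE_04151 to PDE_00400 lie between -1.23 and -1.19, with single libraries from -1.65 to -0.83, whereas Amy15A to PDE_00400 climbs from -3.81 in dPoflbC to 1.70 in dCA.

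A wider list of starch and related genes was drawn by words in the descriptions and orthologue entries, and it holds 18 genes, the 5 above and 13 others. Of the 18, 9 fell and 0 rose in dPoflbC against dCA, 10 fell and 0 rose in dPoflbC against dPoClrC, and 5 fell and 3 rose in dPoClrC against dCA. Medians of log2 fold changes were -0.77, -1.59 and 0.01. With no scaling 1 rose and 8 fell, 0 rose and 9 fell, and 5 rose and 3 fell, in the same order, with medians of -0.19, -1.32 and 0.29. Of the other 13 alone, 4 fell in the first comparison, 5 fell in the next, and 2 fell and 3 rose in the last. The list therefore holds genes that followed the 5 and genes that did not. Of all genes tested, 15.8%, 13.6% and 7.35% fell and 11.4%, 9.05% and 5.69% rose in these comparisons, with scaling.

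**Figure D4:**
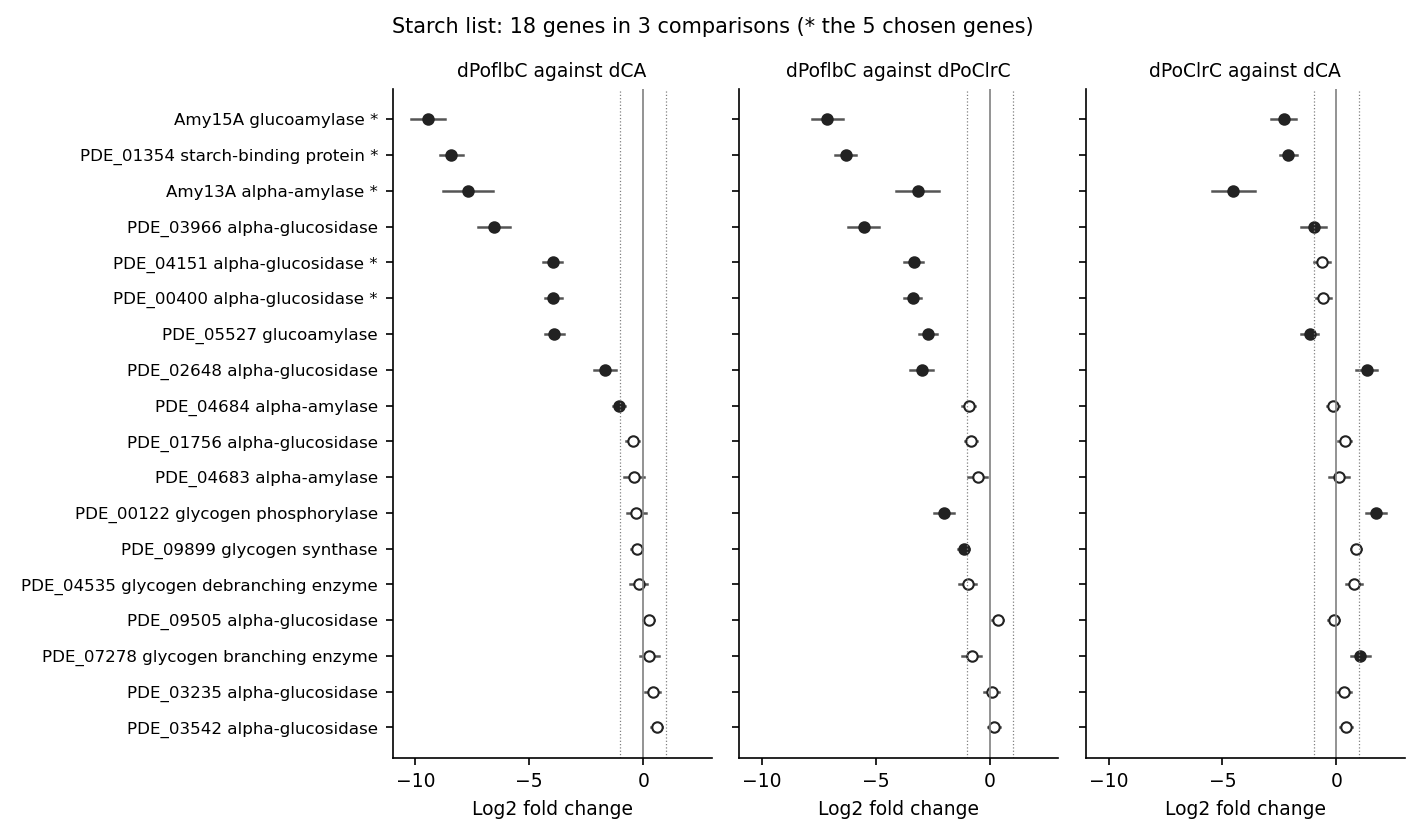
Log2 fold changes from edgeR for the 18 genes of the starch list in 3 comparisons, with 95% intervals as lines, filled points for genes that rose or fell and open points for the rest. Dotted lines mark a log2 fold change of 1 in either direction. The genes at the top fall in dPoflbC down to -9.45, while the glycogen enzymes stay within the dotted lines in dPoflbC against dCA. In dPoClrC against dCA, PDE_00122 (1.72) and PDE_07278 (1.05) lie beyond the dotted lines.

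Outside the 5, a putative alpha-glucosidase and a putative glucoamylase fell furthest in dPoflbC against dCA. The putative alpha-glucosidase PDE_03966 was at 4.35 ± 0.971 RPKM in dPoflbC, 167 ± 22.8 RPKM in dPoClrC and 279 ± 117 RPKM in dCA. Its log2 fold change in dPoflbC was -6.53 against dCA (SE 0.32) and -5.53 against dPoClrC (SE 0.30), lower than those of PDE_04151 and PDE_00400. The putative glucoamylase PDE_05527 was at 32.9 ± 3.14, 179 ± 18.2 and 334 ± 108 RPKM, with log2 fold changes of -3.90 (SE 0.19) and -2.72 (SE 0.18) in dPoflbC. Adjusted p for these 4 values ran from 1.53e-07 to 1.25e-06. In dPoClrC against dCA both fell narrowly, by 1.00 and 1.18 on the log2 scale (adjusted p = 0.0108 and 0.000715). The call of PDE_03966 was lost with no scaling (-0.74), with other size factors, with limma, with the replicate block and without dPoClrC replicate 2 (-0.91), dCA replicate 1 (-0.93) or dCA replicate 3 (-0.81). That of PDE_05527 was lost with no scaling (-0.91) and with limma.

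Starch binding linked part of this group in the annotation. The Gene Ontology term starch binding is attached to 4 of the 9786 genes, namely Amy15A, Amy13A, PDE_01354 and PDE_05527, a set looked up after the values had been seen. All 4 fell in all 3 comparisons with edgeR and scaling. For Amy15A, Amy13A and PDE_01354 this was already known from the results above, so the term added only PDE_05527. The set therefore cannot test whether starch binding goes with the fall, and the share of all genes that fell in all 3 comparisons was not worked out. The call of PDE_05527 in dPoClrC against dCA was lost with no scaling and with limma, as given above. The alpha-glucosidases PDE_04151 and PDE_00400 do not carry the term.

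Other alpha-amylases and alpha-glucosidases of the list behaved differently. The putative alpha-amylase PDE_04684 was among the more abundant, at 317 ± 15.3 RPKM in dPoflbC, 500.1 ± 17.2 in dPoClrC and 445 ± 59.1 in dCA. It fell in dPoflbC against dCA by 1.07 on the log2 scale (adjusted p = 3.72e-05), a call that was lost with no scaling (-0.49), upper quartile scaling (-0.85) and limma. The putative alpha-glucosidase PDE_02648 was highest in dPoClrC, at 48.8 ± 6.45 RPKM against 7.43 ± 1.18 in dPoflbC and 16.3 ± 6.70 in dCA. It rose in dPoClrC against dCA (log2 fold change 1.32, adjusted p = 0.00116) and fell in dPoflbC against dCA (-1.67, adjusted p = 0.000108), the latter lost with limma at a pseudocount of 1 (-0.96) or 5. Against dPoClrC it also fell in dPoflbC (log2 fold change -2.99, adjusted p = 2.90e-06), further than PDE_05527. The order of its strains thus differed from that of Amy15A. Another putative alpha-amylase, PDE_04683, was at 34.5 ± 5.83, 41.3 ± 6.14 and 31.5 ± 11.3 RPKM in dPoflbC, dPoClrC and dCA and was not called in any comparison. PDE_09505 and PDE_03542 are annotated by orthologue as alpha 1,3-glucosidase and mannosyl-oligosaccharide glucosidase, enzymes that trim sugar chains on new proteins in the endoplasmic reticulum. Their log2 fold changes ran from -0.11 to 0.58 over the 3 comparisons and neither was called. With no scaling PDE_03542 rose in dPoflbC against dCA (1.14).

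Enzymes of glycogen, the glucose store inside the cell, did not fall in dPoflbC against dCA. Of the 7 genes of the glycogen list, 4 are also in the starch list. All 7 stayed between -0.52 and 0.26 in log2 fold change, with signs that turned in some settings. Of all genes tested, 15.8% fell and 11.4% rose in this comparison, so 7 genes are too few for a count of 0 to set them apart. The lowest value, -0.52, was that of PDE_01031, annotated by orthologue as glycogen synthase kinase 3 beta, a protein kinase. Against dCA, dPoClrC had higher levels of the phosphorylase PDE_00122, which frees glucose phosphate from glycogen, at 569 ± 54.8 against 143 ± 53.0 RPKM (log2 fold change 1.72, SE 0.19, adjusted p = 0.000183). The branching enzyme PDE_07278 also rose in dPoClrC (1.05, adjusted p = 0.00216), a call lost without dCA replicate 2 (0.85). In dPoflbC against dPoClrC, PDE_00122 fell by 2.03 (adjusted p = 1.61e-05) and the glycogen synthase PDE_09899 by 1.15 (adjusted p = 1.25e-05), the latter lost with no scaling (-0.88) and with limma. With no scaling, PDE_09899 (1.15) and the debranching enzyme PDE_04535 (1.04) also rose in dPoClrC against dCA. With scaling, 2 of the 7 rose in dPoClrC against dCA, where 5.69% of all genes tested rose. In dPoflbC against dPoClrC 2 of the 7 fell, where 13.6% of all genes tested fell.

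Genes with neighbouring locus numbers were read for each of the 5, since genes of fungal sugar use often lie side by side. Of 19 genes within 2 numbers of a member, 12 had enough reads to be tested. Among these 12, 5 fell and 1 rose in dPoflbC against dCA, where 15.8% of all genes tested fell and 11.4% rose. PDE_04150, the number before PDE_04151, is annotated by orthologue as a general alpha glucoside:H+ symporter, a carrier that brings maltose-like sugars into the cell. It was at 62.4 ± 6.15 RPKM in dPoflbC, 436 ± 17.3 in dPoClrC and 460.0 ± 145 in dCA. Its log2 fold changes in dPoflbC were -3.44 against dCA (SE 0.17, adjusted p = 1.73e-07) and -3.08 against dPoClrC (SE 0.17, adjusted p = 4.28e-07), and in dPoClrC against dCA it was -0.35 and not called. Like PDE_04151, it was low in all 3 dPoflbC libraries and close between the other strains. The other 7 genes with this orthologue entry, looked up after these values were seen, had log2 fold changes from -1.87 to 1.77 in dPoflbC against dCA and from -3.32 to 0.52 against dPoClrC. The lowest of the latter, that of PDE_06184 (adjusted p = 3.76e-07), lay below that of PDE_04150. PDE_06184 was a low gene, at 1.71 RPKM in dPoflbC, 14.1 in dPoClrC and 3.23 in dCA. It also fell in dPoflbC against dCA (-1.47), and PDE_03571 fell in both comparisons (-1.87 and -2.05). PDE_01853 rose in dPoflbC against dCA (1.77).

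Next to Amy13A and PDE_01354 in locus number were genes that followed them only in part. Here next to means an adjacent locus number, since positions on the genome were not examined. PDE_01200, a hypothetical protein next to Amy13A, was at 36.3, 98.9 and 52.1 RPKM in dCA, at 7.94 to 12.2 in dPoClrC and at 12.9 to 14.8 in dPoflbC. It fell against dCA in dPoflbC (-2.84, adjusted p = 0.000186) and in dPoClrC (-3.02, adjusted p = 0.000614). Between dPoflbC and dPoClrC its value was 0.18 and not called, where Amy13A differed by -3.17. PDE_01353, annotated as tripeptidyl-peptidase I and next to PDE_01354, fell in dPoflbC against dCA (-3.20, adjusted p = 2.08e-06) and was at 374 ± 101 RPKM in dPoClrC against 207 ± 37.0 in dCA (0.52, not called). The other called neighbours in dPoflbC against dCA are hypothetical proteins. PDE_01356, 2 numbers from PDE_01354, fell there (-1.67) and in dPoClrC against dCA (-1.48), both lost with limma at a pseudocount of 5. PDE_04152, next to PDE_04151, fell in dPoflbC against dCA (-1.31) and dPoClrC (-1.09), both lost with no scaling (-0.74 and -0.82) and with limma, and the second also without dPoflbC replicate 1 (-0.97). PDE_01202, next to Amy13A, rose in dPoflbC against dCA (1.39), lost with limma at a pseudocount of 5. No tested gene within 2 numbers of Amy15A or PDE_00400 fell in dPoflbC against dCA. In dPoClrC against dCA, PDE_09415, 2 numbers from Amy15A, fell (-1.33), and PDE_00401, next to PDE_00400, fell narrowly (-1.04).

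Likeness of pattern was measured as the distance between scaled log2 levels over the 9 libraries, each gene centred on its own mean, among the 8681 genes tested. For Amy15A the 3 nearest were the hypothetical protein PDE_09377 (distance 1.08), PDE_06062, annotated as methylisocitrate lyase (1.54), and PDE_01354 (1.59). PDE_09377 was also the nearest to PDE_01354 (0.84) and stood at 23.0 ± 7.11 RPKM in dPoflbC, 2000.0 ± 135 in dPoClrC and 6805 ± 1633 in dCA. The alpha-glucosidases were near each other, PDE_00400 being the 2nd nearest gene to PDE_04151 and the reverse (distance 0.69), and the carrier PDE_04150 was the 3rd nearest to PDE_04151 (0.74). The nearest to PDE_04151 was PDE_05476, annotated as molybdenum cofactor sulfurtransferase (0.68), and the nearest to PDE_00400 was PDE_04767, annotated as alkaline phosphatase (0.54). Without dCA replicate 2, neither PDE_04150 nor PDE_05476 was among the 3 nearest to PDE_04151.

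Amy13A had no gene as near. Its 3 nearest, the hypothetical proteins PDE_05892, PDE_06064 and PDE_09243, lay at distances of 2.48 to 2.82. PDE_01354 and Amy15A were its 37th and 86th nearest, and the alpha-glucosidases PDE_00400 and PDE_04151 its 106th and 113th. This order depended on dCA replicate 2. With that library left out, PDE_01354 was 66th, PDE_04151 71st, PDE_00400 85th and Amy15A 189th. The distance also grows with scatter among replicates, which was largest for Amy13A among the 5. Its SD was 34.4% of the mean RPKM in dPoflbC, 18.7% in dPoClrC and 38.1% in dCA. With no scaling all 15 of these nearest genes, 3 for each of the 5, were the same. Without dCA replicate 2, 11 of the 15 remained, with 2 of 3 for Amy13A and 1 of 3 for PDE_04151.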

How the data were processed

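The authors deposited whole read counts for each gene and library, which the file header calls unique reads, with RPKM and the percent of the gene length covered, also deposited by the authors. Recomputing RPKM from the counts, the coding length and the library total returned the deposited values. A dash was read as 0. CASAVA 1.8 is named in the submitters' processing notes. The aligner, gene models and genome build were not given in the sources used here, no position is printed, and sequence was not used. Near-identical gene copies were therefore not examined.

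Counts were fitted with edgeR 4.0.16 (filterByExpr, TMM scaling, quasi-likelihood test) on all 9 libraries with 1 mean per strain. SE is the size of the log2 fold change over the root of F. Adjusted p-values are Benjamini-Hochberg over 8681 genes. Alternatives used DESeq2 1.42.0 and limma 3.58.1 on log2(RPKM + pseudocount). Log ratios used reads plus 0.5. The fits were tested on simulated data. The genes and lists were chosen with earlier results of these data known. The rule for names took the 5 genes and the starch and glycogen list genes called in a comparison. It also took neighbours within 2 locus numbers and the 3 nearest in pattern, not all of which are named here. PDE_04683, PDE_09505, PDE_03542, PDE_04535, PDE_01031 and the starch-binding term were added after values were seen. Replicates are biological per the labels. Counts limit precision: the limit set by a count of 0, which is 3 reads, lay between 0.387 and 0.462 reads per M and covers counting error only.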

Additional observations from a re-analysis of the deposited data

How the results depend on the processing

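The log2 fold changes of the 5 genes kept their direction and their call, or lack of it, in all 285 recomputed values. They were recomputed with other scalings, with no filter on low counts, with DESeq2, with limma at pseudocounts of 0.1, 1 and 5, with only the strains compared, with the replicate block and without each library. With limma at a pseudocount of 5 the value of Amy13A was -5.88 in dPoflbC against dCA and -1.98 in dPoflbC against dPoClrC. In dPoClrC against dCA the uncalled values came as near to 0 as -0.30 for PDE_04151 and -0.26 for PDE_00400. For results called in the other named genes, 1033 values kept their call, 50 lost it and none changed direction. Of 34 results not called in the other starch and glycogen list genes, 5 gained a call in at least 1 setting, for PDE_03235, PDE_03542, PDE_09899 and, in 2 comparisons, PDE_04535, and 14 changed sign, such as PDE_00122 in dPoflbC against dCA (-0.30, at most 0.32). The scaling matters for genes near the threshold. With no scaling the median log2 fold change of all genes was 0.51 in dPoflbC against dCA, 0.30 in dPoClrC against dCA and 0.29 in dPoflbC against dPoClrC. The genes that rose and fell then numbered 2272 and 757 (988 and 1368 with scaling), 887 and 454 (494 and 638), and 1289 and 876 (786 and 1179). The replicate numbers did not pair the libraries over all 3 strains. Deviations of same-numbered libraries correlated at -0.176 to 0.12, and a library correlated best with its own number in 8 of 18 cases. Between dPoflbC and dPoClrC a weak pairing was seen. Same-numbered libraries of these strains correlated at 0.111, 0.0979 and 0.0673, and differently numbered ones at -0.0799 to 0.00195. The replicate block called 2332, 1096 and 1966 genes (2356, 1132 and 1965 without it), 5, 3 and 5 of the starch genes, and 9, 7 and 10 of the starch list, where PDE_03966 was no longer called in dPoClrC against dCA (-0.96). Depth limits Amy13A in dPoflbC most, at 36 to 72 reads a library. Ratio tests called 8 or 9 of 10 pairs without any 1 library.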
